A study of Mus musculus with 4 samples.

Results

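Cholesterol synthesis was followed through 8 genes in fibroblasts grown from mouse embryos, cells of connective tissue. They are 6 enzyme genes of the pathway (Hmgcs1, Idi1, Fdps, Fdft1, Sqle and Lss) and 2 genes of its control circuit (Insig1 and Srebf2). The genes are a list of symbols of this pathway, drawn up with earlier results of these data known, and all 8 were found among the 19938 genes read by a probe set with a single gene symbol in the platform annotation. A probe set is the group of probes that together read a gene's RNA, and where a gene had several, the brightest was used. The cells were labelled NFAT5/TonEBP knockout or wild type and stayed unsynchronised for 20 hours in hypertonic medium, which NaCl had brought to 450 mosmol/kg, or in isotonic medium. NFAT5 is the transcription factor that turns on osmolyte genes in hypertonic surroundings. Each of the 4 combinations of genotype and medium was a pool of 4 samples read on 1 Affymetrix Mouse Gene 1.0 ST array. The labels give neither the deleted part of Nfat5 nor the number of embryos behind each genotype, so genotype and cell isolate cannot be told apart. With 1 array per group there is no spread between replicates and no test was possible, so all values describe these 4 pools.

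Cells make cholesterol from acetyl-CoA through mevalonate, isoprenoids, squalene and lanosterol. When sterols in the endoplasmic reticulum run low, the carrier Scap takes the membrane-bound factor SREBP-2, the product of Srebf2, to the Golgi, where proteases release its active part. That part binds sterol regulatory elements and raises transcription of nearly all enzymes of the pathway and of Srebf2 and Insig1 themselves. Insig1 closes the loop by holding Scap and SREBP-2 in the endoplasmic reticulum when sterols are plentiful. The RNAs of these genes are therefore widely read as a gauge of a cell's sterol state.

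The start regions are shown first, since control through sterol regulatory elements near the start is the textbook tie between these genes. RefSeq windows of 300 bases (build GRCm38.p6), from 250 bases before a transcript start to 50 after it, were held for 5 of the 8 genes, Hmgcs1, Idi1, Lss, Insig1 and Srebf2. Shown are Hmgcs1 (chr13:119690101-119690400, plus strand), whose signal differed most between media, the 2 control genes Insig1 (chr5:28071162-28071461, plus strand) and Srebf2 (chr15:82147019-82147318, plus strand), and Tm7sf2 (chr19:6067801-6068100, minus strand), an enzyme gene of the same pathway outside the 8 that differed far more. Each is written 5′ to 3′ on the gene's strand, and capitals mark a sterol element (TCACNCCAC or TCACCCCA), an NF-Y box (CCAAT), an Sp1 box (GGGCGG) or an E-box (CACGTG), on either strand.
Hmgcs1: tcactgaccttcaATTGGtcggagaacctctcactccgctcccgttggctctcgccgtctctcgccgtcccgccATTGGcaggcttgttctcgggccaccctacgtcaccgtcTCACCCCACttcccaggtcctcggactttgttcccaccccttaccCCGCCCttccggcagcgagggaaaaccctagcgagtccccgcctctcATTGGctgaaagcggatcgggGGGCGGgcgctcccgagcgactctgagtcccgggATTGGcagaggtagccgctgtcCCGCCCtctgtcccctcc
Insig1: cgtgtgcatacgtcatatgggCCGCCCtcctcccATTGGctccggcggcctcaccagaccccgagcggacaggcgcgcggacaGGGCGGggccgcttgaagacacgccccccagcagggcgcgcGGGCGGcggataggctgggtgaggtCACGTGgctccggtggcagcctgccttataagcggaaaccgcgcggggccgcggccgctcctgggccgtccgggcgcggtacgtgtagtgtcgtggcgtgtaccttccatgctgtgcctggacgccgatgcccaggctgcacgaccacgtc
Srebf2: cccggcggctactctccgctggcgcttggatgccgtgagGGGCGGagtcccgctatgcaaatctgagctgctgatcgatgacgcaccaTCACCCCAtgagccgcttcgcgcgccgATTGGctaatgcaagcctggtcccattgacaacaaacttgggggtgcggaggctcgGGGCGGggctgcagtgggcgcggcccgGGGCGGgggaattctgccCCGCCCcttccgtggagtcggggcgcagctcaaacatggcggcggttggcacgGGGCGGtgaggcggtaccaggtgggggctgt
Tm7sf2: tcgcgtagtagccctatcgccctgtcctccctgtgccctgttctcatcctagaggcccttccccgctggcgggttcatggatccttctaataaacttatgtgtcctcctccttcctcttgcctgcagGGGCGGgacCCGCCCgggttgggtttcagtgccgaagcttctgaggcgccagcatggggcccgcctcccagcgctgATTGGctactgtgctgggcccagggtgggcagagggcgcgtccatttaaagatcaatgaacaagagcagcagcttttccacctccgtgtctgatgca

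The sterol element TCACNCCAC was found in 1 of the 5 windows, in Hmgcs1 at 137 bases before the start, and in 1.24% of all 32851 RefSeq windows of this length. The shorter TCACCCCA, which overlaps it and was added after the sequences were seen, was found in 2 of the 5, in Hmgcs1 and, 162 bases before the start, in Srebf2, and in 1.56% of all windows. An NF-Y box and an Sp1 box, the sites of 2 factors known to work beside SREBPs, were each found in all 5 windows, against 37.4% and 35.7% of all windows. The E-box CACGTG was found in 1 of the 5, in Insig1 at 101 bases before the start, and in 7.15% of all windows. The core TGGAAA, shared by NFAT family sites, was found in 1 of the 5, in Idi1, and in 21.4% of all windows. These matches describe letters in a window and not binding.

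A few facts of the arrays bear on what follows. A gene was taken as measured in a comparison when at least 1 of the arrays compared gave it a signal above a dim limit. That limit was set on each array at the middle value of all probe sets with a single gene. Those limits lay between 5.38 and 5.44 on the log2 scale, and all 8 genes read far above them on all 4 arrays. The Nfat5 probe set read 8.24 and 8.03 in knockout-labelled hypertonic and isotonic cells, against 8.19 and 7.74 in wild-type hypertonic and isotonic cells. It was not lower under the knockout label, and since the deleted part is not given, this does not check the label. Of 11 fibroblast markers, 8 read above the dim limit on each array, and Dcn, Lum and Fap on none. The summed signal of the 11 was 13.31 and 13.87 (log2) in knockout-labelled hypertonic and isotonic cells, against 14.32 and 14.14 in wild-type hypertonic and isotonic cells. Endothelial and muscle markers, 4 of each, were above the limit on no array, while 3 or 4 of 5 epithelial markers were, led by Krt18 and Krt19. Among the epithelial markers, Cdh1 was above the limit on both wild-type arrays and on neither knockout-labelled array. Krt8 was below the limit in wild-type hypertonic cells only. Of 4 leukocyte markers at most 1, Cd68, and of 4 neural and Schwann cell markers 2, Ncam1 the brighter, were above it on any array. The summed signal of these neural and Schwann cell markers was 7.63 and 7.90 (log2) in knockout-labelled hypertonic and isotonic cells, against 8.73 and 8.86 in wild-type hypertonic and isotonic cells. In such bulk RNA, fewer cells of a kind and less RNA per cell cannot be told apart. The part of these marker levels in the differences below was not tested.

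The 8 genes read well above the dim limit in all 4 pools, and none differed by as much as 1.5-fold between any 2 arrays compared. The range of a gene over the 4 arrays, its highest minus its lowest log2 signal, ran from 0.10 for Fdps to 0.52 for Hmgcs1, with a median of 0.25. Over all 9217 genes above the dim limit on all 4 arrays the median range was 0.46. Bright probe sets vary less, so the 1781 genes at least as bright as the dimmest of the 8 (a mean of 8.95) are the closer background, and their median range was 0.37. The range of 5 of the 8 genes lay below that value, close to an even split.

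Hmgcs1 encodes the cytosolic HMG-CoA synthase, which opens the mevalonate pathway by joining acetyl-CoA to acetoacetyl-CoA. It read 10.22 in knockout-labelled hypertonic and 10.74 in knockout-labelled isotonic cells, and 10.42 in wild-type hypertonic and 10.71 in wild-type isotonic cells. Both hypertonic pools were thus below both isotonic pools. The hypertonic pool was lower by 0.52 in knockout-labelled cells, a fold of 1.44, and by 0.29 in wild-type cells, a fold of 1.22.

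Idi1 encodes the isomerase that turns isopentenyl diphosphate into dimethylallyl diphosphate, and Fdps encodes the synthase that joins these units into farnesyl diphosphate, the branch point to sterols and to protein prenylation. Idi1 read 10.51 in knockout-labelled hypertonic and 10.47 in knockout-labelled isotonic cells, and 10.39 in wild-type hypertonic and 10.52 in wild-type isotonic cells. Fdps read 10.43 in knockout-labelled hypertonic and 10.51 in knockout-labelled isotonic cells, and 10.42 in both wild-type pools. These were the flattest of the 8 genes together with Srebf2, and no pool stood apart. A second probe set of Idi1 gave nearly the same pattern at a lower level, with 10.21, 10.17, 10.09 and 10.22 in the same order of pools as the first.

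Fdft1 encodes squalene synthase, the first enzyme committed to sterols, Sqle encodes squalene epoxidase, and Lss encodes lanosterol synthase, which closes the sterol rings. Fdft1 read 10.77 in knockout-labelled hypertonic and 10.95 in knockout-labelled isotonic cells, and 11.03 in wild-type hypertonic and 10.97 in wild-type isotonic cells. The knockout-labelled hypertonic pool was the low one of these. The second Fdft1 probe set read 10.28, 10.36, 10.37 and 10.27 in that order, and there the knockout-labelled hypertonic pool was not the lowest. The annotation gives both probe sets of Idi1, and both of Fdft1, the same transcripts, so signal from a near-identical copy could not be told apart.

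Sqle read 10.00 in knockout-labelled hypertonic and 10.21 in knockout-labelled isotonic cells, and 10.24 in wild-type hypertonic and 10.41 in wild-type isotonic cells. It was lower in hypertonic than in isotonic medium within each genotype and lower in knockout-labelled than in wild-type cells within each medium. Lss read 8.85 in knockout-labelled hypertonic and 9.02 in knockout-labelled isotonic cells, and 8.83 in wild-type hypertonic and 9.08 in wild-type isotonic cells. For Lss the 2 hypertonic pools were nearly equal and below the 2 isotonic pools.

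Insig1 and Srebf2, the control genes, followed the order seen for Sqle in their extremes. Insig1 read 10.36 in knockout-labelled hypertonic and 10.62 in knockout-labelled isotonic cells, and 10.57 in wild-type hypertonic and 10.74 in wild-type isotonic cells. Srebf2 read 9.85 in knockout-labelled hypertonic and 9.95 in knockout-labelled isotonic cells, and 9.92 in wild-type hypertonic and 10.04 in wild-type isotonic cells. Sqle, Insig1 and Srebf2 were each lowest in the knockout-labelled hypertonic pool and highest in the wild-type isotonic pool. Over all 8, the knockout-labelled hypertonic pool was lowest for 5 genes and the wild-type hypertonic pool for 3, while the wild-type isotonic pool was highest for 5, the knockout-labelled isotonic pool for 2 and the wild-type hypertonic pool for 1. Among the 1781 bright genes the knockout-labelled hypertonic pool was lowest for 35.9% and the wild-type hypertonic pool for 34.5%, and the wild-type isotonic pool was highest for 20.7%.

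**Figure D1:**
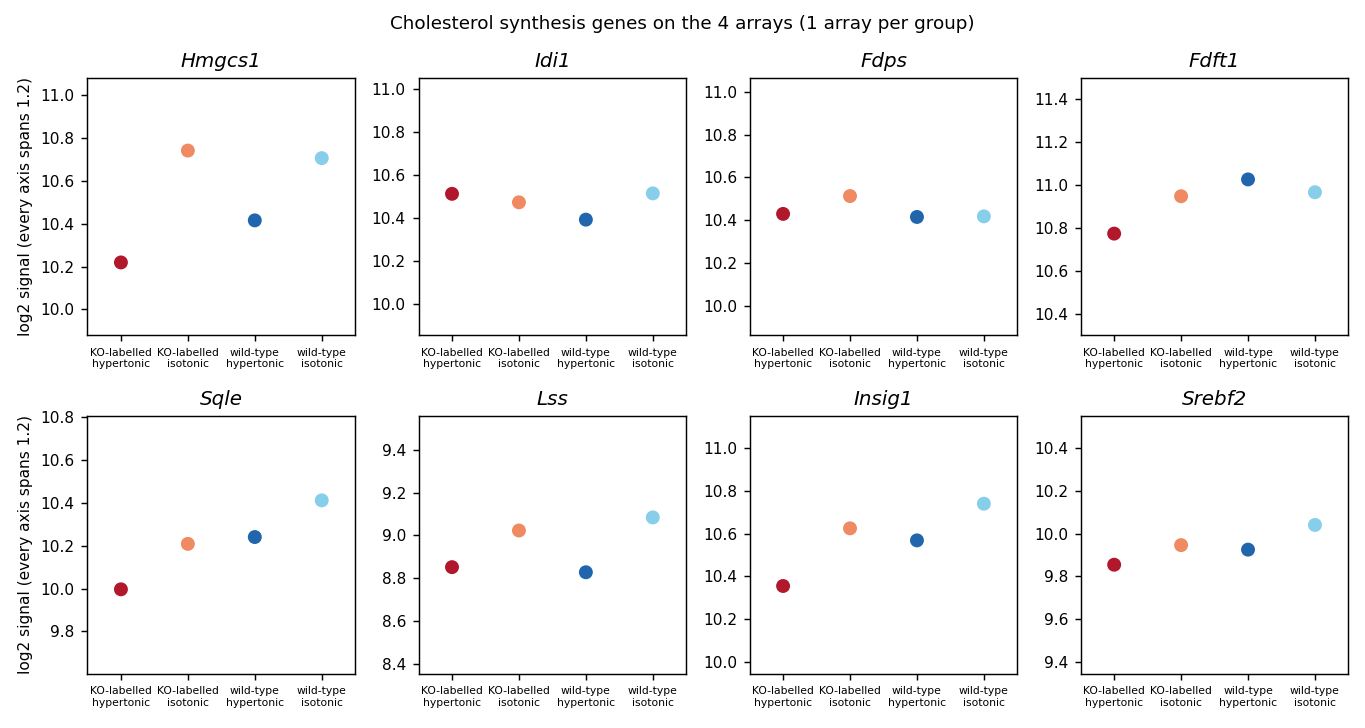
Log2 signal of each of the 8 genes (y axis, every panel spanning the same height) on the 4 arrays (x axis, 1 point per array, no replicates). Hmgcs1 has the widest spread, 0.52, and Fdps the narrowest, 0.10.

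The first comparison asked what hypertonic medium did to these genes in knockout-labelled cells. The 8 genes were a little lower as a group, with a median difference of -0.17, and 7 of 8 were below 0. Hmgcs1 was lowest (-0.52), followed by Insig1 (-0.27) and Sqle (-0.21), and Idi1 was the 1 gene above 0 (0.04). None was at least 2-fold or at least 1.5-fold higher or lower, where 3.46% and 16.3% of 10277 measured genes were. Of the 1781 bright genes 6.51% passed 1.5-fold, so none of 8 is close to the background. At 2-fold these were 39 higher and 317 lower genes, or 63 higher and 215 lower after quantile normalization. All measured genes also leaned down here, with a median of -0.09 and 60.1% below 0, and quantile normalization moved that median to 0.01. Relative to the measured genes' own median, the median of the 8 was -0.09 and 6 of 8 were below 0.

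In wild-type cells the same contrast gave a median of -0.15 for the 8 genes, and 7 of 8 were below 0. Hmgcs1 (-0.29) and Lss (-0.26) were lowest, Fdps was level (0.00), and Fdft1 was the gene above 0 (0.06). The count below 0 was 6 of 8 after cyclic loess normalization or centring. None passed 2-fold or 1.5-fold, against 1.42% and 7.42% of 10134 measured genes, and 3.87% of the bright genes at 1.5-fold. The median of all measured genes was -0.02, with 53.9% below 0.

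Without replicates, one gauge of measurement error is the disagreement between 2 probe sets that read the same gene on the same arrays. Its SD per probe set was 0.19 in the knockout-labelled response (450 genes) and 0.15 in the wild-type response (441 genes). The differences of 5 and 4 of the 8 genes were smaller than that SD in the 2 responses. Hmgcs1 exceeded it in both, at -0.52 and -0.29, and so did Sqle and Insig1. This SD leaves out the variation between cultures, which was not measured. It also pools measured genes of any brightness and was not taken for bright genes alone. Since bright probe sets vary less, it may be too wide for the 8 genes.

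The second question was whether the genotypes differed within a medium, read on the same 4 arrays as the responses above. In isotonic medium the 8 genes had a median knockout-labelled minus wild-type difference of -0.05, from Sqle (-0.20) to Fdps (0.09). All measured genes leaned slightly the other way, with a median of 0.03. Of them 45.2% were below 0, and of the bright genes 40.5%, against 6 of the 8 genes. None passed 2-fold or 1.5-fold, where 2.87% and 8.78% of 10191 measured genes did, and 3.14% of the bright genes at 1.5-fold. The SD between probe sets was 0.19, and 7 of the 8 differences were smaller than that. Sqle was the exception.

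In hypertonic medium the median genotype difference of the 8 genes was -0.13, from Fdft1 (-0.25) and Sqle (-0.24) to Idi1 (0.12). Of the 8 genes 5 were below 0, against 50.5% of all measured and 47.6% of the bright genes. This was the comparison with the most genes past the limits, with 9.00% of 10374 measured genes at least 2-fold and 23.8% at least 1.5-fold higher or lower. None of the 8 was among them. The median absolute difference was 0.16 for the 8 genes, 0.31 for all measured genes and 0.24 for the 1781 bright genes. Of those bright genes 13.2% passed 1.5-fold.

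The difference of the responses, knockout-labelled minus wild-type, shares its arrays with the comparisons above and so adds no separate evidence. Its median over the 8 genes was -0.06, next to -0.06 for all 10542 measured genes, and became 0.02 after quantile normalization. It ran from Fdft1 (-0.23) and Hmgcs1 (-0.23) to Idi1 (0.16), and 7 of the 8 differences were smaller than the SD between probe sets, 0.23. None passed 2-fold or 1.5-fold, against 6.94% and 23.2% of measured genes, and 10.6% of the bright genes at 1.5-fold.

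**Figure D2:**
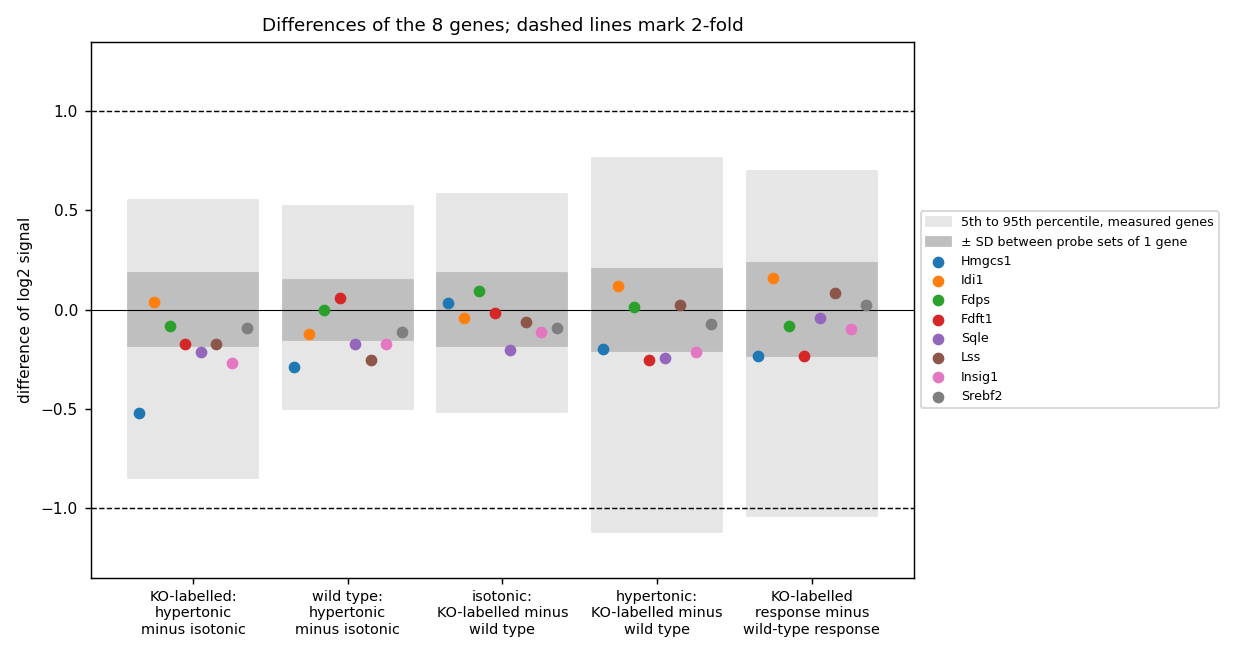
Differences of log2 signal (y axis) of the 8 genes, 1 coloured point each, in the 5 comparisons (x axis). Light bars span the 5th to 95th percentile of all measured genes, dark bars the SD between probe sets of a gene to either side of 0, and dashed lines mark 2-fold; all points lie between -0.52 and 0.16.

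The rest of the sterol pathway was read from 11 of 13 further enzyme genes with a one-gene probe set. In knockout-labelled cells their hypertonic response had a median of -0.17, close to the 8 genes. Past 2-fold was 1 of 11, against 3.46% of all measured genes. Below 0 were 10 of 11, against 60.1% of all measured genes. Relative to the measured genes' own median, Mvd (0.14) and Msmo1 (0.03) were among those above 0, so fewer were below it. In wild-type cells the response had a median of -0.07, and none of the 11 passed 2-fold, against 1.42% of all measured genes. Below 0 were 7 of 11, against 53.9% of all measured genes. Msmo1, the C4 methyl sterol oxidase gene, responded by -0.06 in knockout-labelled and -0.22 in wild-type cells. Cyp51, the lanosterol demethylase gene, responded by -0.12 and -0.19, and Sc5d, a desaturase gene, by -0.17 and -0.15. The hypertonic genotype difference of the 11 genes had a median of -0.21, against -0.13 for the 8 genes. Of the 11, 10 were below 0, against 50.5% of all measured genes. At least 1.5-fold lower were 3 of 11, against 15.1% of all measured genes. Of the 8 genes 5 were below 0 there, and none passed 1.5-fold. The 3 lower genes, described below, read dimmer than each of the 8 on every array, and the sets were not matched for brightness.

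Tm7sf2 was the enzyme gene that departed furthest from its pathway. It encodes a sterol C14 reductase, which acts directly after Cyp51. It read 5.72 in knockout-labelled hypertonic and 7.21 in knockout-labelled isotonic cells, and 8.09 in wild-type hypertonic and 7.40 in wild-type isotonic cells. The knockout-labelled hypertonic pool was far below the other pools and not far above the dim limit of 5.41, and the wild-type hypertonic pool was the highest. Its response was -1.49 in knockout-labelled and 0.69 in wild-type cells, and the genotype difference in hypertonic medium was -2.37, against -0.19 in isotonic medium. It passed 2-fold in the knockout-labelled response, the hypertonic genotype difference and the difference of responses (-2.18). In the start region printed above, Tm7sf2 held an NF-Y box, 2 Sp1 boxes and, 28 bases after the start, the NFAT core. It held neither form of the sterol element. Of all windows 21.4% held the NFAT core, and 1.24% and 1.56% the forms of the sterol element. The presence of that core and the absence of these forms are thus common, and binding was not tested.

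Dhcr7, the gene of a late sterol reductase, and Mvk, the mevalonate kinase gene, came next. Dhcr7 read 6.90 in knockout-labelled hypertonic and 7.39 in knockout-labelled isotonic cells, and 7.89 in wild-type hypertonic and 7.60 in wild-type isotonic cells. Mvk read 7.17 in knockout-labelled hypertonic and 7.79 in knockout-labelled isotonic cells, and 8.09 in wild-type hypertonic and 8.17 in wild-type isotonic cells. Both were lowest in the knockout-labelled hypertonic pool, with hypertonic genotype differences of -0.99 and -0.93 that stayed short of 2-fold. Dhcr7 reached -1.02 when differences were centred on the median of all one-gene probe sets. Hsd17b7, a sterol ketoreductase gene, responded by -0.39 in knockout-labelled and -0.01 in wild-type cells, and Mvd, which decarboxylates mevalonate diphosphate, by 0.06 and -0.16.

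**Figure D3:**
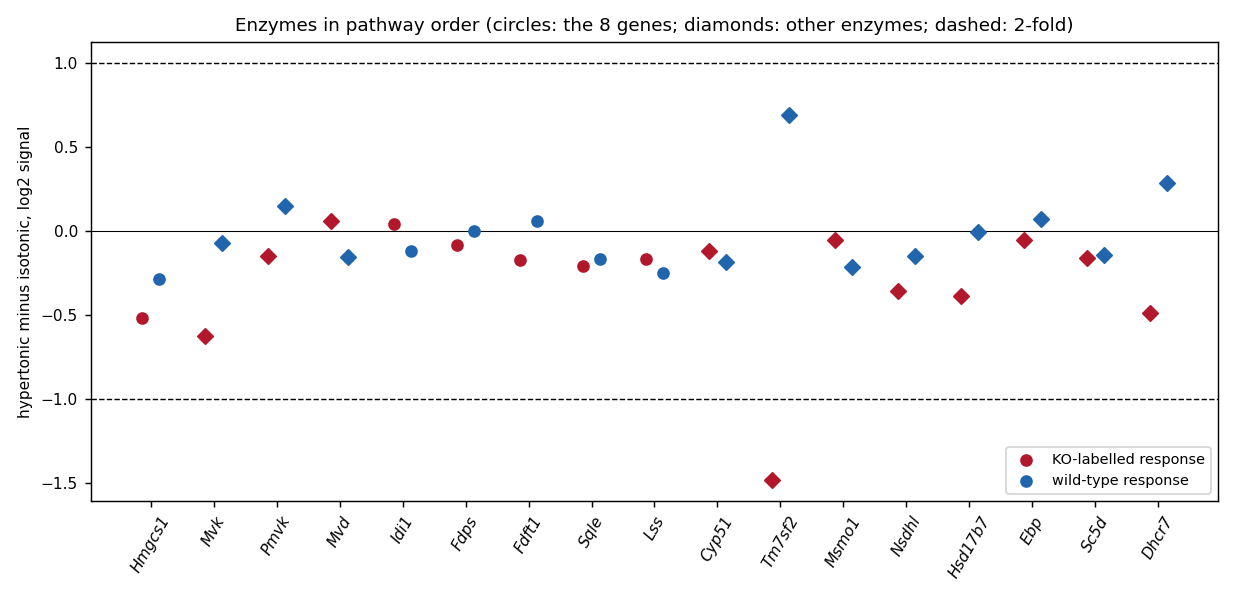
Hypertonic minus isotonic log2 signal (y axis) of enzyme genes in pathway order (x axis), red for knockout-labelled and blue for wild-type cells. Circles are the 6 enzyme genes among the 8, diamonds the other 11, and dashed lines mark 2-fold; Tm7sf2 lies at -1.49 and 0.69, away from the rest.

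The next list was genes that process or restrain SREBPs. Of 10 measured, none passed 2-fold in any comparison as deposited, against 1.42% to 9.00% of all measured genes across the comparisons. In the hypertonic genotype difference 2 of 10 passed 1.5-fold, Mbtps1 lower and Trib1 higher, against the 23.8% of all measured genes. Trib1, a pseudokinase gene, lay at 0.99 in the difference of responses and past 2-fold after quantile normalization (1.07) or centring on the median of the measured genes (1.04). Its wild-type hypertonic signal of 5.37 was below that array's dim limit of 5.44, so the size of its differences is poorly determined. The median response was 0.01 in knockout-labelled and -0.13 in wild-type cells. Scap, the SREBP carrier, differed by 0.14 in knockout-labelled and 0.05 in wild-type cells. Mbtps1, the site-1 protease that makes the first cut in SREBPs, read 9.11 in knockout-labelled hypertonic and 9.77 in knockout-labelled isotonic cells, and 9.79 in wild-type hypertonic and 9.94 in wild-type isotonic cells. Its knockout-labelled hypertonic pool was the low one, at -0.67 against the wild-type pool in the same medium. Insig2, the second Insig gene, was higher in knockout-labelled than in wild-type cells by 0.45 in hypertonic and 0.37 in isotonic medium, while Insig1 differed by -0.21 and -0.11. Srebf1, the gene of the SREBP that favours fatty acid genes, differed between genotypes by -0.20 and -0.12 in the same media.

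Of the fatty acid and lipid genes known as SREBP targets 15 of 16 were measured. These 15 had a median hypertonic response of -0.25 in knockout-labelled cells, with 13 below 0, against 0.04 in wild-type cells, with 6 below 0. The wild-type responses ran from Tmem97 (-0.71) to Acss2 (0.92), the 1 gene at least 1.5-fold lower and the 1 at least 1.5-fold higher. Of all 10134 measured genes 7.42% passed 1.5-fold in that response. In hypertonic medium the median genotype difference was -0.52, against -0.13 for the 8 genes and -0.01 for all measured genes, with 13 of 15 below 0, against 50.5% of all measured genes. At 1.5-fold 5 of 15 were lower and none higher, against 15.1% of all measured genes lower (1562 of 10374) and 905 higher. Acss2, the cytosolic acetyl-CoA synthetase gene, read 6.89 in knockout-labelled hypertonic and 6.95 in knockout-labelled isotonic cells, and 8.04 in wild-type hypertonic and 7.12 in wild-type isotonic cells. The wild-type hypertonic pool was the high one, and the genotype difference there was -1.15, the 1 difference of this list past 2-fold in that medium. Of all measured genes 9.00% passed 2-fold there. Gpam, a glycerol-3-phosphate acyltransferase gene, had a knockout-labelled response of -1.03, which no longer passed 2-fold after quantile normalization (-0.90), cyclic loess normalization (-0.98) or centring on the median of the measured genes (-0.94). The desaturase genes Fads1 and Fads2 had hypertonic genotype differences of -0.70 and -0.76, while Fasn, the fatty acid synthase gene, had -0.03 and Scd2 had -0.07.

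Of the efflux, storage and LXR list, 8 genes were measured in the hypertonic genotype difference, and its 2 genes past 2-fold went opposite ways. Of all 10374 measured genes 9.00% passed 2-fold there, 267 higher and 667 lower. Lpcat3, a phospholipid acyltransferase gene driven by LXR, had -1.15, and Nceh1, a neutral cholesterol ester hydrolase gene, had 1.13. Abca1 and Abcg1, the sterol exporter genes, read near the dim limit, at most 5.75 and 6.05. Of 11 genes of the isoprenoid side branches none passed 2-fold in any comparison, against 1.42% to 9.00% of all measured genes across the comparisons. Pdss2 (0.84) and Coq2 (-0.79), both of ubiquinone synthesis, had the largest hypertonic genotype differences of that list.

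**Figure D4:**
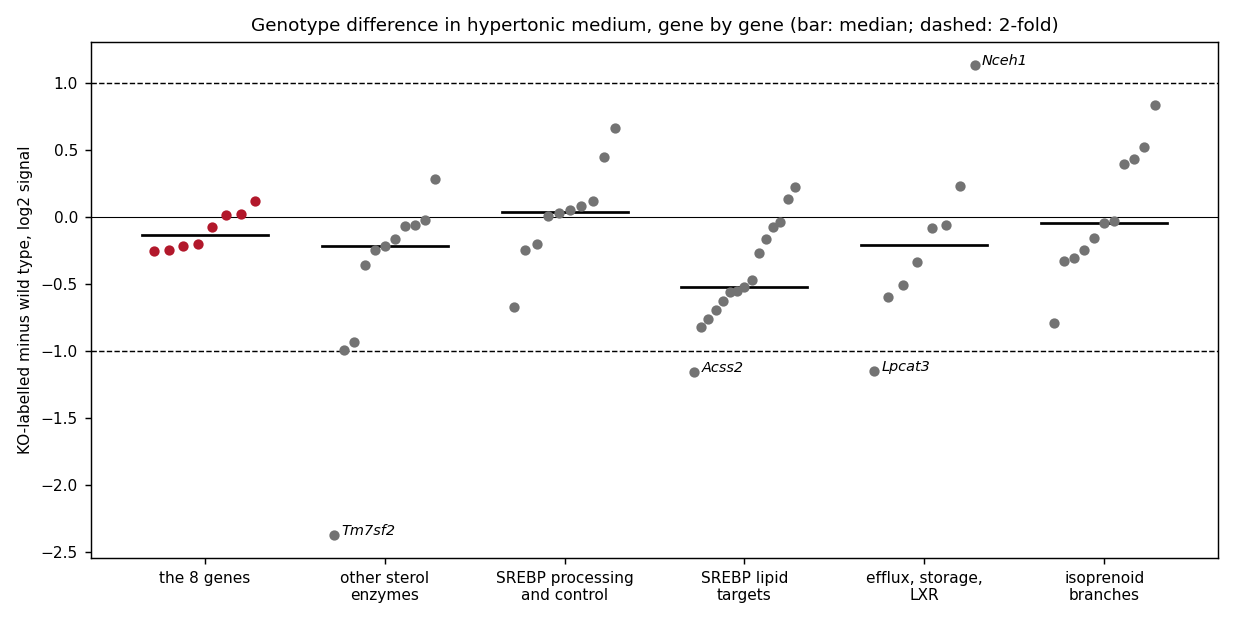
Knockout-labelled minus wild-type log2 signal in hypertonic medium (y axis) for the 8 genes (red) and the 5 further lists (grey), 1 point per measured gene, ordered by value within a list, with the list's median as a bar and 2-fold as dashed lines. The 8 genes lie between -0.25 and 0.12, and Tm7sf2 (-2.37), Acss2 (-1.15), Lpcat3 (-1.15) and Nceh1 (1.13) pass 2-fold.

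The genes closest in pattern to the mean of the 8 were sought by Euclidean distance. It was taken between a gene's 4 log2 values, centred on their mean, and the mean centred profile of the 8. That profile was -0.13 and 0.05 in knockout-labelled hypertonic and isotonic cells, against -0.03 and 0.10 in wild-type hypertonic and isotonic cells. Of 8906 candidates the closest were Tbcd, a tubulin cofactor gene (distance 0.0046), Wfs1 (0.013), Mrm3 (0.021), Rdx, encoding radixin (0.023), and the sterol enzyme gene Sc5d (0.024). The 8 genes themselves lay between 0.068 for Srebf2 and 0.262 for Hmgcs1 from their own mean. Closer than Srebf2 lay 54 candidates, closer than Lss 225 and closer than Insig1 251. Closer than Fdft1 lay 632, than Sqle 646, than Fdps 993, than Idi1 1290 and than Hmgcs1 2391. The mean profile thus describes several of the 8 genes poorly. The likeness rests on 4 arrays and on a shallow profile.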

How the data were processed

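Total RNA of each pool was amplified and read on its own array, per the labels' protocols. The authors deposited 1 log2 signal per probe set and array; the log2 scale was read from the values, 1.57 to 13.94. MAS5 is the 1 tool in the submitters' processing notes. The sources used here do not state how background was corrected or arrays were scaled, nor a genome build, and values were used as deposited. Of 35557 probe sets, 21789 had 1 gene symbol in the platform annotation, 1621 had several and 12147 had none here; only the first kind was used. Of these, 21698 matched RefSeq by Entrez identifier. With 1 array per group no test, SE or p was made. The number of arrays limits the precision.

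Differences are of log2 values, beside counts over all measured genes at 2-fold and 1.5-fold. The genes and the 5 further lists were chosen with earlier results of these data known. The rule names all 8 genes, Nfat5, list genes past 2-fold, the 4 largest differences of a list in a comparison, and the 5 closest profiles, from which the text takes its examples. Scap, Srebf1 and Scd2 fall outside it and were chosen after their values were seen. Counting was tested on simulated data with 200 altered genes. Alternatives were quantile and cyclic loess normalization, centring, no dim limit or one at the 75th percentile, the mean of probe sets and a 1.5-fold limit. Python 3.11.15, pandas 2.3.3, numpy 2.4.6, matplotlib 3.10.9, R 4.3.3 and limma 3.58.1 were used.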

Additional observations from a re-analysis of the deposited data

Results flagged for a closer look

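Idi1, Fdft1 and Tm7sf2 had hypertonic responses of opposite sign in the 2 genotypes, with 1 array per group, so that these differences were not tested. Opposite signs were not particular to them. Other list genes had them too, among them Dhcr7 (-0.49 in knockout-labelled and 0.28 in wild-type cells) and Trib1 (0.37 and -0.62). The share over all genes was not counted. Idi1 responded by 0.04 in knockout-labelled and -0.12 in wild-type cells, a difference of 0.16, below the 0.23 SD between probe sets. Fdft1 responded by -0.17 in knockout-labelled and 0.06 in wild-type cells, a difference of -0.23 that is level with that SD. Tm7sf2 responded by -1.49 in knockout-labelled and 0.69 in wild-type cells, a difference of -2.18, and its knockout-labelled hypertonic signal of 5.72 lies near the dim limit of 5.41.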

How the results depend on the processing

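No count of the 8 genes past 2-fold, 0 in each of the 5 comparisons, differed under another setting. These were quantile or cyclic loess normalization, centring on all one-gene probe sets, other dim limits, the mean of probe sets and a 1.5-fold limit. Centring on the median of the measured genes was added after the data were seen. The dim limits could not change a value of the 8 genes, which were measured under each. The largest deposited difference, 0.52, lay far from the log2 limit of 1, so these unchanged counts are a weak check. Across all these settings the median of the 8 genes ran from -0.20 to -0.09 in the knockout-labelled response, from -0.15 to -0.11 in the wild-type response, from -0.11 to -0.02 in the isotonic and from -0.17 to -0.12 in the hypertonic genotype difference. For the difference of responses it ran from -0.11 to 0.02 and so has no settled sign. No gene of the 8 moved by as much as the SD between probe sets under quantile, loess, centring or probe set averaging, and the largest absolute difference in any setting was 0.55, for Hmgcs1 in the knockout-labelled response. Over all genes, the lower limit of 1.5-fold raised the counts 2.64 to 5.22 times, and the dim limit at the 75th percentile gave fewer genes past 2-fold from fewer genes tested: 121 in place of 356 in the knockout-labelled response, 69 in place of 144 in the wild-type response, 112 in place of 292 and 457 in place of 934 in the isotonic and hypertonic genotype differences, and 338 in place of 732 in the difference of responses. At 1.5-fold the same 5 counts were 1677, 752, 895, 2467 and 2442. Of the list genes, Gpam no longer passed 2-fold as given above, and Acss2 (-1.04) in the difference of responses and Dhcr7 (-1.02) in hypertonic medium passed it when centred on all one-gene probe sets. Signal over background limits Tm7sf2, Gpam, Trib1, Abca1 and Abcg1, which read near or below the dim limit on at least 1 array. No paired analysis was possible because each group has 1 array.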
